A study of Homo sapiens with 4 samples.

Results

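Contact domains of up to 200 kb, the small end of the domains that Arrowhead found in these TNBC cells, are described here. They were chosen by size alone, as every domain whose boundaries lay 200 kb or less apart on the 10 kb grid of the caller, and they numbered 3539 of the 7418 domains in the lists of 4 libraries. The libraries came from Arima-HiC of MDA-MB-231, a wild-type triple negative breast cancer (TNBC) line, grown in complete RPMI medium and treated for 48 h with DMSO (vehicle) or with 75 nM THZ1. Each condition had 2 libraries, called technical replicates in the labels and duplicates in the study's methods, so the p-values below measure only the spread between these libraries, which may be technical. The lists hold no read totals, so the part of sequencing depth in the number of calls was not tested, and they hold no expression, so the cell line was not checked against its markers.

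A contact domain is a stretch of chromatin whose parts meet each other more often than they meet the flanking DNA, seen as a square of raised contacts along the diagonal of a Hi-C map. Cohesin is thought to extrude chromatin into a loop until it meets CTCF bound in a convergent orientation, so the ends of many domains are also joined by a focal loop at the corner of the square, called a corner loop below. Arrowhead's corner score grades how sharply the corner stands out. THZ1 is a covalent inhibitor of CDK7, the kinase of the CDK-activating complex and of TFIIH, which acts on RNA polymerase II. Condensin, the complex at the centre of the study, compacts chromosomes for mitosis.

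The sequences printed here are the matches to the core of the CTCF motif at the ends of small domains, shown because their orientation could be read without the contact data. All were read from the GRCh37 genome, run 5′ to 3′ on the strand of the match, and carry the 12 matched letters in capitals. The search covered 10 kb on either side of each end, both strands, and a match was called inward when it pointed into the domain. By the naming rule, the domains with the highest corner scores in all 4 libraries came first. The PDLIM5 domain (chr4:95320001-95520000, 200 kb) had a match at its left end only, between genes and pointing outward, and no match lay within 10 kb of its right end or of either end of the ATL2 domain (chr2:38540001-38740000, 200 kb). PDLIM5 encodes a scaffold of the actin cytoskeleton and ATL2 encodes atlastin-2, which fuses membranes of the endoplasmic reticulum.
PDLIM5 domain, left end, chr4:95312140-95312169, minus strand: ctcctcttgCCAGCAGGTGGCtctgtgtca

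The other sequences were chosen after their values were seen and belong to domains with inward matches at both ends and a corner loop in each library that called them. Among domains called in all 4 libraries, the pair at KDM2B and ORAI1 (chr12:121930001-122110000) lay in introns of KDM2B and MORN3, and the pair at CYTH3 (chr7:6200001-6380000) lay in an intron of USP42 and in introns of SAGSIN1 and FAM220A. KDM2B encodes a histone demethylase, ORAI1 a calcium channel of the plasma membrane and CYTH3 an activator of ARF GTPases.
KDM2B-ORAI1 domain, left end, chr12:121937860-121937889, plus strand: cccctgcggCCACCAGGGGGCgccctgggc
KDM2B-ORAI1 domain, right end, chr12:122106751-122106780, minus strand: caagtctgaCCAGCAGGGGGCaaaggggtc
CYTH3 domain, left end, chr7:6199976-6200005, plus strand: tggccgggcCCAGCAGATGGCgcctccctg
CYTH3 domain, right end, chr7:6385875-6385904, minus strand: tcaaaacctCCACCAGGTGGCttgaattga
Among domains called in both THZ1 and neither vehicle library, the pair at TP53I11 and PRDM11 (chr11:44940001-45120000) lay in introns of TSPAN18 and TP53I11 on the left and of PRDM11 on the right. The pair at KCNQ1 (chr11:2710001-2900000), a potassium channel gene of an imprinted region, lay in an intron of KCNQ1 that is also an exon of its antisense RNA KCNQ1OT1, and in an exon of SLC22A18AS.
TP53I11-PRDM11 domain, left end, chr11:44948807-44948836, plus strand: ttgcaatcaCCACTAGGTGGCgcctcagcc
TP53I11-PRDM11 domain, right end, chr11:45127226-45127255, minus strand: ttgttgtggCCACCAGGTGGCgggccaggg
KCNQ1 domain, left end, chr11:2713749-2713778, plus strand: ggctccctaCCACCAGAGGGCccttggcct
KCNQ1 domain, right end, chr11:2909773-2909802, minus strand: tccatctggCCAGCAGAGGGCgcagaagga

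Small domains were more numerous with THZ1, and they made up a lower share of all domains. They made up 52.3% of the domains of vehicle replicate 1 (627 of 1198), 51.9% of vehicle replicate 2 (725 of 1398), 45.2% of THZ1 replicate 1 (1119 of 2477) and 45.5% of THZ1 replicate 2 (1068 of 2345). The number averaged 676 ± 69.3 (SD, n = 2) in the vehicle libraries and 1094 ± 36.1 (SD, n = 2) with THZ1, a ratio of 1.62 (log2 ratio 0.69), and the share averaged 52.1 ± 0.338% (SD, n = 2) and 45.4 ± 0.260% (SD, n = 2). Neither set of values overlapped between conditions. The direction of the share depended on the limit: counted up to 250 kb, it was 1.22 percentage points higher with THZ1, with overlap, against -6.74 up to 200 kb. Between 2 libraries and 2 libraries the exact two-sided permutation test cannot give a p below 0.333, which both reached, and 0.667 was the adjusted value over the 14 results compared this way. No result of this design can therefore pass a threshold of 0.05, and "higher" and "lower" below state which libraries lay above which.

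The ratio of THZ1 to vehicle was larger for the longer small domains, though not at each step of the grid (it was 1.08 at 130 kb). The shortest domains in each list measured 120 kb, and there the libraries held 25 and 27 domains with vehicle and 36 and 32 with THZ1, a ratio of 1.31. At 200 kb they held 51 and 70 with vehicle and 148 and 157 with THZ1, a ratio of 2.52. Just outside the limit, at 210 kb, the numbers were 33 and 46 with vehicle and 100 and 92 with THZ1, a ratio of 2.43. Summed over sizes up to 150 kb the ratio was 1.34, from 250 and 261 against 355 and 328 domains, and over 150 to 200 kb it was 1.79, from 377 and 464 against 764 and 740. The limit of 200 kb thus cut through a continuous run of sizes rather than a gap, and at 300 kb the ratio stood at 7.89. With either vehicle library the median small domain had 160 kb, and with either THZ1 library 170 kb, which is 1 step of the grid more.

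**Figure D1:**
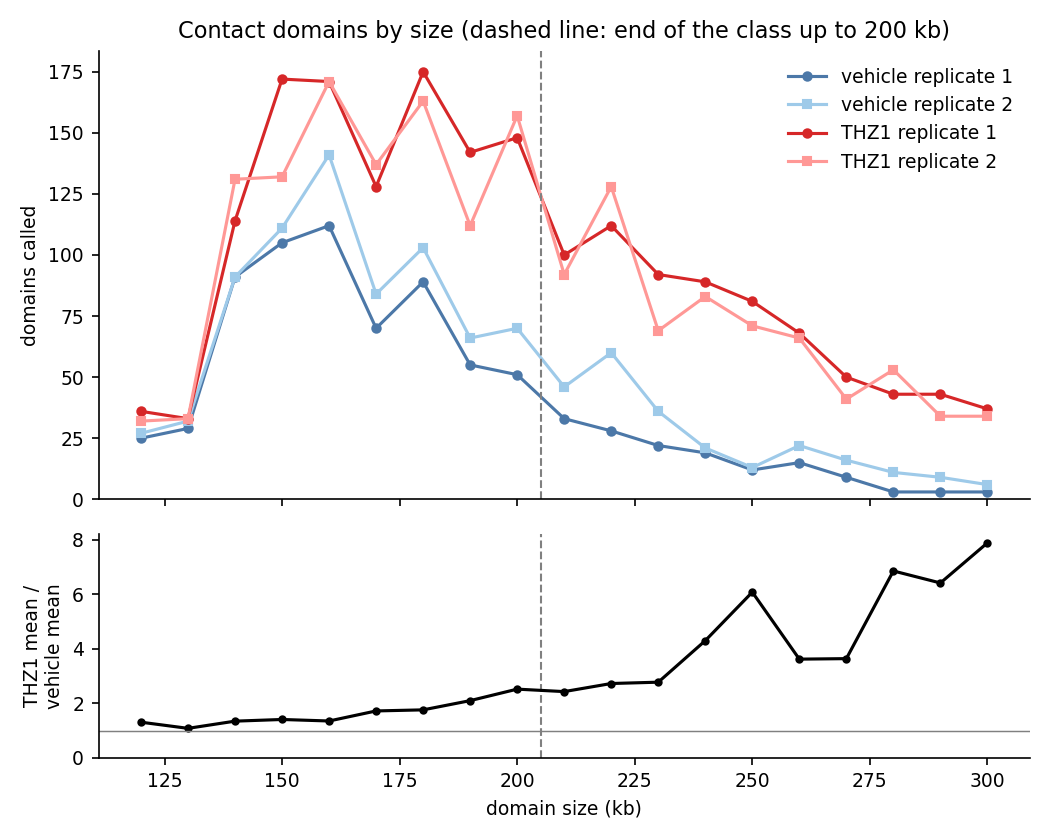
The upper panel plots the number of domains of each size (kb, in steps of 10 kb) in each of the 4 libraries, and the lower panel the ratio of the THZ1 mean to the vehicle mean, with a dashed line after 200 kb. The ratio stands at 1.31 at 120 kb, 2.52 at 200 kb and 7.89 at 300 kb, without a step at the dashed line.

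Small domains occupied little of the genome and a larger share of its genes. They covered 102 and 119 Mb with vehicle and 188 and 179 Mb with THZ1, or 3.29%, 3.83%, 6.06% and 5.78% of the genome. In these stretches lay the starts of 1356, 1513, 2366 and 2345 of the 20163 protein-coding genes, or 6.73%, 7.50%, 11.7% and 11.6%. The gene density of small domains was 13.3 and 12.7 gene starts per Mb with vehicle and 12.6 and 13.1 with THZ1, where the genome as a whole has 6.51. Averaged over the libraries it was 12.9 per Mb, against 8.84 in domains of over 200 and under 600 kb and 3.85 in domains of 600 kb or more, and it was highest in small domains in each of the 4 libraries.

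The gene content of small domains did not separate the conditions. The mean number of gene starts in a domain was 2.16 and 2.09 with vehicle against 2.11 and 2.20 with THZ1, and the conditions overlapped (exact permutation p = 0.667). No gene started in 16.6% and 16.4% of small domains with vehicle and in 17.4% and 15.8% with THZ1. Domains that lay wholly inside 1 gene made up 7.34% and 8.41% with vehicle and 7.77% and 7.96% with THZ1. Both shares overlapped between conditions. The 95% Wilson interval of the share inside 1 gene was 5.55% to 9.65% for vehicle replicate 1 and 6.35% to 9.49% for THZ1 replicate 1, and such intervals cover counting error only. In each of the 4 libraries this share was higher than in domains of 600 kb or more, where it averaged 1.45%. In domains of over 200 and under 600 kb it averaged 6.93%, against 7.87% in small domains. Small domains had the higher share there in 3 of 4 libraries, and in THZ1 replicate 2 the larger class had 8.15%. A longer domain needs a longer gene to hold it, so these comparisons between classes are not independent of size.

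Most small domains had a gene start near an end. A gene start lay within 20 kb of at least 1 end in 67.6% and 66.3% of small domains with vehicle and in 64.6% and 65.8% with THZ1. These values did not overlap, with a mean difference of -1.77 percentage points (exact permutation p = 0.333), but the Wilson intervals of 66.3% in vehicle replicate 2 (62.8% to 69.7%) and 65.8% in THZ1 replicate 2 (62.9% to 68.6%) did. Gene starts at both ends were found in 22.5% and 22.6% with vehicle against 22.3% and 24.0% with THZ1, and these overlapped. Averaged over libraries, small domains had a gene start at an end in 66.1%, against 59.5% for domains of over 200 and under 600 kb and 48.3% for those of 600 kb or more, in the same order in each library. Gene density fell in the same order, at 12.9, 8.84 and 3.85 starts per Mb, and its part in these shares was not tested. No share for random positions was computed, so a preference of genes for the ends cannot be read from these values. Genes at these ends pointed either way at similar shares: over the 4 libraries, 26.5% to 28.4% of ends had a gene transcribed into the domain and 27.2% to 29.6% a gene transcribed out of it.

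**Figure D2:**
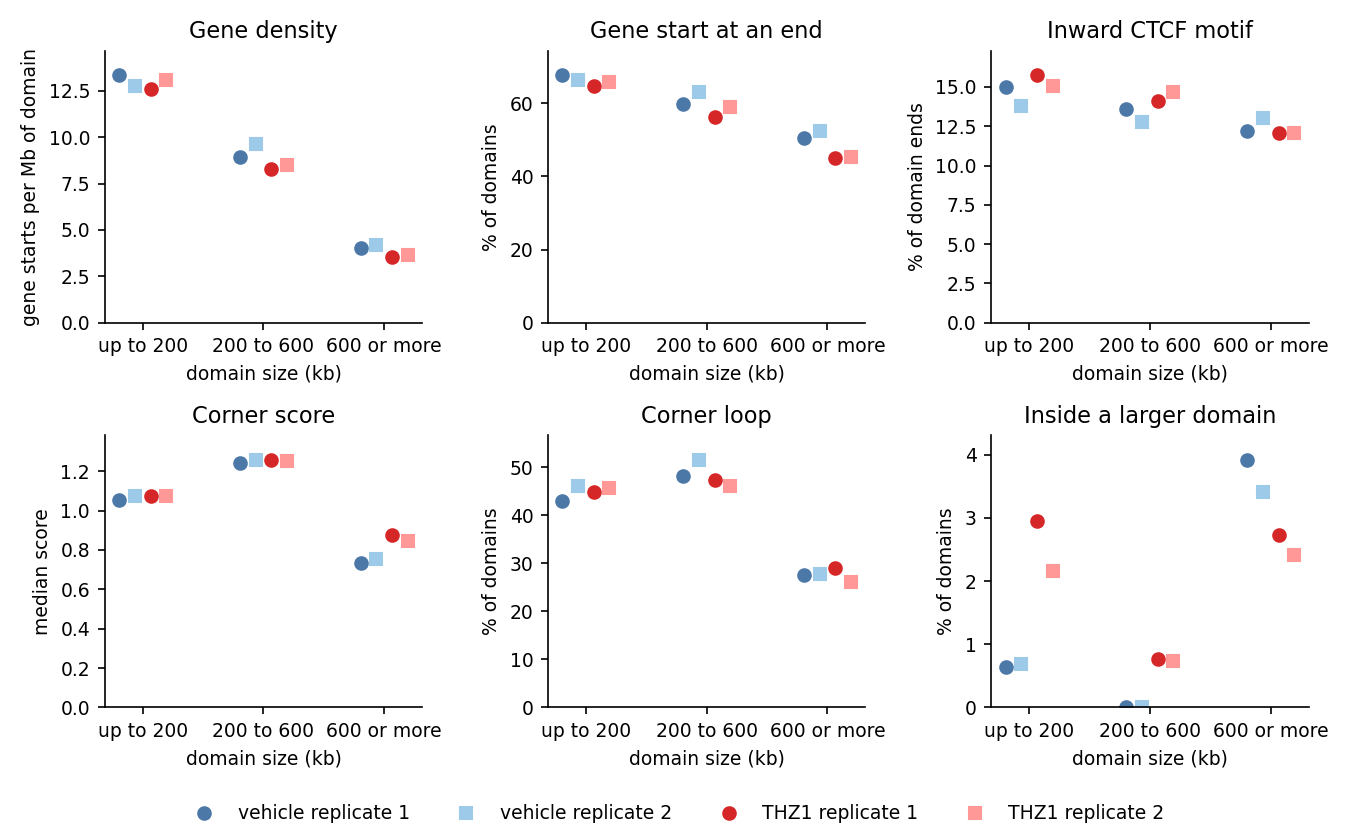
Each panel plots 1 measure in the 4 libraries for domains of up to 200 kb, of over 200 and under 600 kb and of 600 kb or more: gene starts per Mb, share with a gene start within 20 kb of an end, share of ends with an inward CTCF motif, median corner score, share with a corner loop and share inside a larger domain. Small domains have the highest gene density (mean 12.9 per Mb) and their median corner score (mean 1.07) lies between those of the other classes.

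In the comparison of size classes, each library gave 1 difference, so the exact sign-flip test over 4 libraries cannot give a p below 0.125. Of the 26 comparisons with another class, 21 reached it, with an adjusted p of 0.153 over these and the comparison of inward with outward motifs. The median corner score of small domains averaged 1.07 over the libraries, lower than the 1.25 of domains of over 200 and under 600 kb and higher than the 0.803 of those of 600 kb or more, in 4 of 4 libraries each. Corner loops were found at 44.9% of small domains on average, against 48.3% and 27.7% in these classes, again in the same order in 4 of 4 libraries. A single gene spanned at least 70% of the domain in 25.8% of small domains, against 23.5% and 8.64%, and small domains had the highest share in each library. Several measures also depend on domain length, which defines the classes. Among them are gene starts per domain and the shares without a gene start, inside a larger domain, and inside or spanned by 1 gene. Their directions are thus not independent of the choice by size.

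CTCF motif matches pointed into small domains more often than out of them, as they did for larger domains. An inward match lay within 10 kb of 15.0% and 13.8% of ends with vehicle and of 15.7% and 15.0% with THZ1, and an outward match near 6.54% and 6.00% with vehicle and 6.52% and 6.69% with THZ1. Of 285855 windows of the same length over the whole genome, 3.65% held a match on a given strand and 7.10% on either. The inward share was above the outward share in 4 of 4 libraries, by 8.45 ± 0.582 percentage points (SD, n = 4). It was slightly higher with THZ1, by 0.986 percentage points, and did not overlap between conditions (exact permutation p = 0.333). The nearest values were almost equal, 14.99% in vehicle replicate 1 and 15.03% in THZ1 replicate 2. With a limit of 150 kb the difference was 0.634 and the conditions overlapped. Inward matches at both ends, as in the KDM2B-ORAI1 domain printed above, were present in 1.59% and 2.21% of small domains with vehicle and in 2.86% and 2.25% with THZ1. The absence of a match says only that these letters are not in the window.

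The corner score of domains up to 200 kb did not separate the conditions either, but this depended on the limit. Its median was 1.05 and 1.08 with vehicle and 1.08 and 1.07 with THZ1, so that both THZ1 values lay within or just above the spread of the vehicle libraries (exact permutation p = 0.667). In every library the score was higher at 200 kb than at 120 kb. At 120 kb the median was 0.911 and 0.903 with vehicle against 0.869 and 0.888 with THZ1, and at 200 kb it was 1.16 and 1.15 with vehicle and 1.15 and 1.16 with THZ1. Just outside the limit, at 210 kb, it was 1.18 and 1.12 with vehicle against 1.19 and 1.20 with THZ1. With a limit of 150 kb the mean of the medians differed by -0.0161 (THZ1 minus vehicle) and with 250 kb by 0.0231. With only domains of at least the median corner score of all domains it differed by 0.00957. In each of these settings the conditions did not overlap.

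Scores of the same domain differed between conditions in either direction, with a median difference close to 0. In the 198 small domains found in all 4 lists, the median score was 1.13 in each vehicle library and 1.14 and 1.13 in the THZ1 libraries. These medians overlapped, but this depended on the settings. THZ1 minus vehicle was 0.0293 with a limit of 150 kb and 0.0107 with 250 kb. It was -0.0158 with boundaries matched within 10 kb and 0.0269 within 50 kb. In each of these settings the conditions did not overlap. The median difference per domain was 0.0051 with an SD of 0.0862 over domains, where each value is a difference of means of 2 libraries. The difference between single replicates, which varies more than a difference of means, had an SD of 0.0965 for vehicle and 0.0838 for THZ1. Both THZ1 scores lay above both vehicle scores in 47 of the 198 (23.7%) and below them in 50 (25.3%). Among the 406 domains of all sizes matched in this way, 47% were above and 17% below. The surplus of higher scores among matched domains as a whole was thus not seen in the small ones, and a test of that difference was not made.

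**Figure D3:**
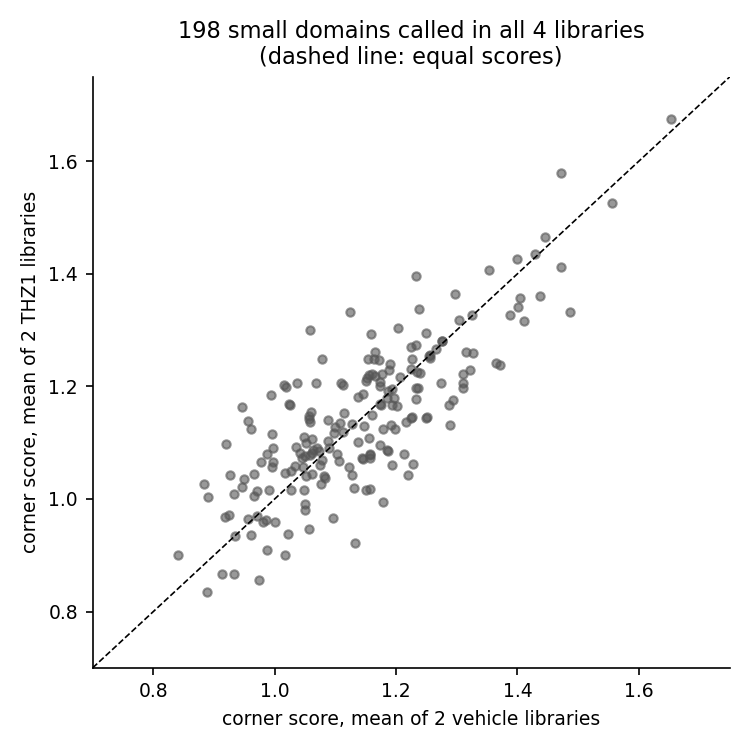
Each point is 1 of the 198 small domains called in all 4 libraries, with its mean corner score in the vehicle libraries on the x axis and in the THZ1 libraries on the y axis (both without units), and the dashed line marks equal scores. The points lie around the line, 104 of them above it (52.5%).

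A loop joined both ends of close to 45% of small domains with either treatment. The shares, with loop anchors within 20 kb of both ends, were 43.1% (270 domains) and 46.1% (334) with vehicle and 45.0% (503) and 45.7% (488) with THZ1. They overlapped, with Wilson intervals of 39.2% to 47.0% for vehicle replicate 1 and 42.1% to 47.9% for THZ1 replicate 1 (exact permutation p = 1). This result depended on the distance allowed: with 10 kb the THZ1 mean lay -0.821 percentage points from the vehicle mean and with 50 kb -4.98, and at both distances the conditions did not overlap. With only domains of at least the median corner score of all domains, it lay 3.61 points above the vehicle mean, again without overlap. In every library corner loops were called more often at 120 kb than at 200 kb. At 120 kb the shares were 48% and 66.7% with vehicle against 72.2% and 59.4% with THZ1, from 25 to 36 domains a library. At 200 kb they were 31.4% and 44.3% with vehicle and 37.8% and 42.0% with THZ1. Between these sizes the share did not fall steadily: at 190 kb it was 43.6% and 53.0% with vehicle and 43.7% and 53.6% with THZ1.

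Contacts at the corner loops called at small domains, as at larger ones, stood less far above their surroundings with THZ1 by the median. The loops called differed between libraries, so the medians do not follow the same loops. The median ratio of observed contacts to those expected from the donut-shaped neighborhood was 6.88 and 6.61 for vehicle and 6.35 and 6.18 for THZ1. The values did not overlap and differed by -0.482 on average (exact permutation p = 0.333). With anchors within 10 kb, or with only domains of at least the median corner score, the differences were -0.260 and -0.123 and the conditions overlapped. In domains of over 200 and under 600 kb the ratio was 7.31 and 7.46 for vehicle and 6.96 and 6.26 for THZ1, and in those of 600 kb or more 8.40 and 8.13 for vehicle and 6.91 and 7.24 for THZ1. The ratio was lower in small domains than in those of 600 kb or more, where it averaged 7.67 against 6.51, in 4 of 4 libraries.

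Few small domains lay inside a larger domain, and more did so with THZ1. The numbers were 4 and 5 domains with vehicle and 33 and 23 with THZ1, or 0.638%, 0.690%, 2.95% and 2.15%. The mean share was 0.664 ± 0.0366% (SD, n = 2) for vehicle and 2.55 ± 0.563% (SD, n = 2) with THZ1, a ratio of 3.84, and the conditions did not overlap (exact permutation p = 0.333). Over the same libraries, the share of the genome covered by larger domains was 12.6% and 13.6% with vehicle against 21% and 20.5% with THZ1, and its part in the nesting was not tested. Every small domain that overlapped a larger one lay wholly inside it. Small domains also bordered on other domains more often with THZ1: an end was shared, within 20 kb, by 14.5% and 14.3% of them with vehicle and by 26.5% and 26.2% with THZ1. The part of the larger number of all domains with THZ1 in this was not tested.

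When domains of different lists were matched by both boundaries within 20 kb, the 4 lists of small domains came to 1877 distinct ones. Of these, 892 (47.5%) were called in 1 library alone, 504 (26.9%) in 2, 283 (15.1%) in 3 and 198 (10.5%) in all 4, where 9.97% of domains of all sizes were called in all 4. Both THZ1 libraries and neither vehicle library held 276 (14.7%), against 18.2% of domains of all sizes, and both vehicle libraries and neither THZ1 library held 58 (3.09%), against 3.81%. Domains of all sizes include the small ones. Of the domains over 200 kb alone, 9.48% were called in all 4 libraries, 21.1% in both THZ1 and neither vehicle library and 4.42% in both vehicle and neither THZ1 library. Small domains were thus called in all 4 libraries about as often as larger ones, and less often in both libraries of 1 condition alone. These differences were not tested.

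Small domains of the vehicle libraries were mostly still called with THZ1, and many of the others lay in larger THZ1 domains. Of those of vehicle replicate 1, 58.2% and 58.7% were matched in the THZ1 lists and 53.1% in the other vehicle list. Of those of vehicle replicate 2, the shares were 58.5% and 57.1% in the THZ1 lists and 44.3% in the other vehicle list. The longer THZ1 lists offered more domains to match. A larger THZ1 domain without the same boundaries held 25.8% and 23.4% of the small domains of vehicle replicate 1, against 10.5% held by a larger domain of the other vehicle library. For vehicle replicate 2 these shares were 24.1% and 23.9%, against 11.4%. Domains of over 200 kb covered 21% and 20.5% of the genome with THZ1 and 12.6% and 13.6% with vehicle. The part of this coverage in the difference was not tested.

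In the other direction, fewer small domains of the THZ1 libraries had been called with vehicle. Those of THZ1 replicate 1 were matched in 31.2% and 37% of cases in the vehicle lists and in 62.4% in the other THZ1 list, and those of THZ1 replicate 2 in 32.4% and 38.1% and in 65.4%. From 41.5% to 47.2% of the small THZ1 domains lay outside the larger domains of a given vehicle list and had neither end at a boundary in it. Loops were nevertheless called at many places where a vehicle list held no matching domain. Of all small THZ1 domains unmatched in a vehicle library, 38.7% to 44.6% had a loop of that vehicle library joining both ends. Those with neither end at a boundary were not counted apart for this.

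The same held for domains with replicated calls. At the positions of the 276 small domains called in both THZ1 and neither vehicle library, a corner loop was called at 43.1% and 47.8% in the vehicle libraries and also at 45.7% and 46.0% in the THZ1 libraries. At least 1 vehicle library had the loop at 146 of them (52.9%), and both had it at 105 (38.0%). Where called, these loops had median observed to expected ratios of 8.42 and 8.26 with vehicle and 7.20 and 6.82 with THZ1. A loop was thus called at these positions about as often with vehicle, where the domain was not called, as with THZ1. The 198 domains called in all 4 libraries had corner loops at 54.5% and 54.5% with vehicle against 53.0% and 50% with THZ1. The 58 called with vehicle alone had them at 27.6% and 22.4% with vehicle and at 24.1% and 24.1% with THZ1.

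**Figure D4:**
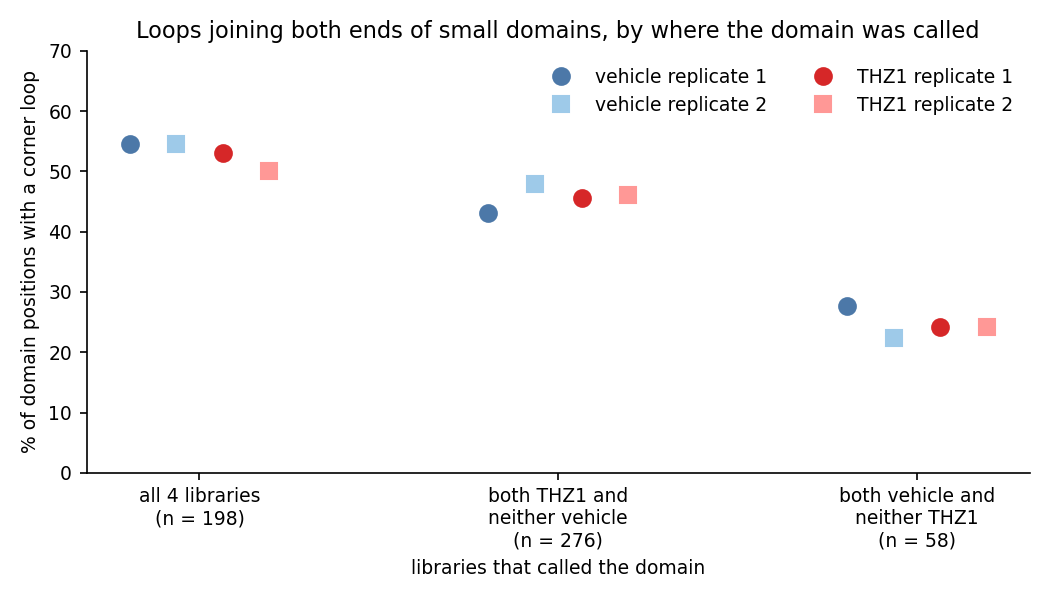
The share of domain positions (%) with a loop joining both ends is plotted for each of the 4 libraries, for small domains called in all 4 libraries (n = 198), in both THZ1 and neither vehicle library (n = 276) and in both vehicle and neither THZ1 library (n = 58). Within each set the vehicle and THZ1 points lie close together, between 43.1% and 47.8% in the middle set, whichever libraries called the domain.

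These sets also differed in gene content, given here as a description. No gene started in 11.1% of the domains called in all 4 libraries, in 14.9% of those called with THZ1 alone and in 25.9% of those called with vehicle alone, and 5.05%, 6.88% and 15.5% lay inside 1 gene. A gene start lay at an end of 74.2%, 64.1% and 63.8%, and an inward CTCF match lay near 18.4%, 17.0% and 8.62% of ends. Inward matches at both ends, searched without chromosome 8, were present in 9 of 196 domains called in all 4 libraries, in 9 of 267 called with THZ1 alone and in 0 of 56 called with vehicle alone. The set called with vehicle alone thus had the lowest shares with a corner loop and with inward matches and the highest share without a gene start, over 58 domains.

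The highest scores among small domains found in all 4 libraries each belonged to a domain with a single gene start. The PDLIM5 domain scored 1.62 and 1.68 with vehicle against 1.67 and 1.68 with THZ1, and its corner loop had 38 and 50 contacts with vehicle and 60 and 39 with THZ1, against 2.46, 2.95, 5.19 and 4.11 expected. The domain of WWC2, a gene for a scaffold of the Hippo pathway (chr4:184000001-184170000, 170 kb), scored 1.47 and 1.64 with vehicle and 1.54 and 1.52 with THZ1, with 17 and 19 contacts against 2.72 and 2.77 expected, and 40 and 31 against 3.78 and 3.33. The ATL2 domain scored 1.39 and 1.56 with vehicle and 1.59 and 1.56 with THZ1. All of these had corner loops in the 4 libraries.

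Of the small domains called in both THZ1 and neither vehicle library, that of chromosome 1 from 24970001 to 25160000 scored highest, at 1.62 and 1.65. It began at SRRM1, which encodes a splicing coactivator, and held the start of CLIC4, an intracellular chloride channel gene. Its ends were joined by a loop in both THZ1 libraries, with 48 contacts against 14.4 expected and 46 against 12.7, and in vehicle replicate 1, with 29 against 7.99, but in no loop of vehicle replicate 2. The domain of chromosome 4 from 73930001 to 74130000, with the starts of COX18 and ANKRD17 at its ends, scored 1.55 and 1.51. COX18 serves the assembly of cytochrome c oxidase. Its loop was called in all 4 libraries, with 20 and 25 contacts with vehicle and 26 and 25 with THZ1. The domain of chromosome 5 from 125670001 to 125870000, at GRAMD2B, scored 1.64 and 1.40, with a loop in vehicle replicate 2 and both THZ1 libraries.

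Of those called with vehicle alone, the domain of chromosome 3 from 149940001 to 150130000, with TSC22D2 at its right end, scored 1.34 and 1.47 and had a corner loop in all 4 libraries. The domain of chromosome 19 from 46580001 to 46770000 scored 1.34 and 1.31. It holds IGFL1, IGFL2, IGFL3 and IGFL4, a cluster of genes for secreted proteins related to insulin-like growth factors, and its loop had 77 and 99 contacts with vehicle and 85 and 81 with THZ1, against 5.76, 6.71, 7.09 and 7.39 expected. The domain of chromosome 7 from 81150001 to 81350000 scored 1.33 and 1.40, had no gene start and no loop in any library, and overlapped HGF, the gene of the ligand of MET. Some domains absent from the THZ1 lists thus still had their corner loop in them.

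The small domain with the most genes in both vehicle libraries, on chromosome 11 from 63950001 to 64120000, held 18 gene starts and no corner loop. It holds STIP1, a cochaperone gene, VEGFB, BAD, a gene of apoptosis, ESRRA and PRDX5, and it scored 1.21 and 1.25 with vehicle and 1.14 and 0.984 with THZ1. That domain was also called in both THZ1 libraries. Single libraries held domains with up to 22 (vehicle replicate 2) and 25 (THZ1 replicate 1) gene starts. A domain called in both THZ1 libraries with as many gene starts, 18, lay on chromosome 6 from 31640001 to 31830000. This second domain is within the class III region of the major histocompatibility complex. It held the heat shock genes HSPA1A, HSPA1B and HSPA1L, the MutS homologue MSH5 and DDAH2. It scored 1.16 in vehicle replicate 1 and 1.12 and 1.16 with THZ1, and it was not called in vehicle replicate 2.

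Genes of 9 lists, some of the study's subject (CDK7, condensin, cohesin and mitosis) and others of TNBC biology, were looked up in these domains by where they start. Of all 20136 protein-coding gene symbols, 3.77% started in a small domain in both vehicle libraries, 7.6% in both THZ1 libraries and 2.39% in all 4, while 2.67% did so in both THZ1 and neither vehicle library and 0.507% in both vehicle and neither THZ1 library. Of the 8 condensin genes, SMC2, SMC4, NCAPD2, NCAPG, NCAPH, NCAPD3, NCAPG2 and NCAPH2, 0 started in a small domain in any library, where 18.7% of all genes did so in at least 1. A list of 8 genes is too short to read a lack of such domains from this. Of 15 genes of cohesin, its regulators and CTCF, only CTCF itself was called in both libraries of a condition. Its start lay in a domain of chromosome 16 from 67540001 to 67690000 that scored 1.19 and 1.07 with THZ1 and was in neither vehicle list. WAPL, which releases cohesin from chromatin, started in a small domain of vehicle replicate 2 alone.

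Of 14 genes of the CDK7 complex, the other transcriptional kinases and RNA polymerase II, 2 started in a small domain in both THZ1 and neither vehicle library, and CDK7 itself was in none. CDK9, the kinase of P-TEFb, lay in a domain of chromosome 9 that began at 130500001 and scored 1.01 and 1.05, with a corner loop in both THZ1 libraries. POLR2A, the largest subunit of RNA polymerase II, shared a domain of chromosome 17 from 7250001 with 16 other gene starts in each THZ1 library, at scores of 0.955 and 0.914. These 2 of 14 made up 14.3%, but in a list this short 2 genes are too few to set against the 2.67% of all genes.

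Mitotic regulators had the highest share of the 9 lists in both THZ1 libraries, where 7.6% of all genes were found. Of 20, 5 (25%) started in a small domain in both THZ1 libraries, 1 (5%) in both vehicle libraries and 1 (5%) in all 4. AP-1 came next in both THZ1 libraries, at 20% (2 of 10). By presence in at least 1 library, the mitotic list (30%) lay below AP-1 (40%) and YAP and TEAD (38.5%). In lists this short, these shares were not tested against that of all genes. CDC20, the activator of the anaphase-promoting complex, was in all 4, with scores of 1.12 and 1.01 with vehicle and 1.10 and 1.11 with THZ1. BUB1B, a kinase of the spindle checkpoint, lay in a domain of chromosome 15 from 40330001 in both THZ1 and neither vehicle library, at 1.14 and 1.12. TOP2A, which untangles DNA, scored 0.954 in vehicle replicate 1 and 1.25 and 1.25 with THZ1. BIRC5, which encodes survivin of the chromosomal passenger complex, scored 0.989 in vehicle replicate 1 and 1.03 and 1.03 with THZ1. The mitotic cyclin gene CCNB2 scored 1.33 in vehicle replicate 2 and 1.16 and 1.24 with THZ1. TOP2A, BIRC5 and CCNB2 were thus in both THZ1 libraries and in 1 of the 2 vehicle libraries.

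Of the 10 AP-1 genes, FOSL1 was in a small domain in all 4 libraries, with 11 to 14 gene starts in it and scores of 1.05 and 0.983 with vehicle against 0.909 and 0.892 with THZ1, and JUNB in both THZ1 libraries and vehicle replicate 2. Of the 13 genes of YAP, TEAD and the Hippo pathway, YAP1 lay in a domain of its own from 101960001 of chromosome 11 in both THZ1 and neither vehicle library, at the low scores of 0.747 and 0.772. Of the 14 genes of the epithelial-mesenchymal transition, ESRP1, an epithelial splicing regulator, was in both vehicle libraries and THZ1 replicate 2. Of the 13 luminal genes, SPDEF, an epithelial transcription factor, was in all 4, in a domain of chromosome 6 that ends at 34570000 and had a corner loop in each. Of the 24 basal and invasive genes, TGFBI, a matrix protein gene, was in all 4, and S100A4 and S100A6, of the S100 cluster of calcium-binding proteins, were in both vehicle libraries and THZ1 replicate 2.

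The surplus of small domains with THZ1 was spread over the chromosomes and uneven among them. Both THZ1 libraries held more small domains than both vehicle libraries on 22 of 23 chromosomes, where for domains of all sizes this was so on 100% of them. The exception was chromosome 4, with 33 and 50 small domains with vehicle and 48 and 46 with THZ1, a ratio of 1.13. The ratio was highest on chromosome 21, with 3 and 3 domains against 16 and 18 (5.67), and on chromosome 13, with 4 and 1 against 13 and 11 (4.80). On chromosome X it was 3.43, from 4 and 3 against 12 and 12, and on chromosome 22 it was 3.07, from 7 and 7 against 21 and 22. After chromosome 4, the lowest ratios were 1.15 on chromosome 20, with 24 and 28 against 31 and 29, and 1.24 on chromosome 11, with 54 and 63 against 75 and 70. The ratios of chromosomes 13, 21 and X rest on 1 to 4 domains in a vehicle library and carry a large counting error.

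**Figure D5:**
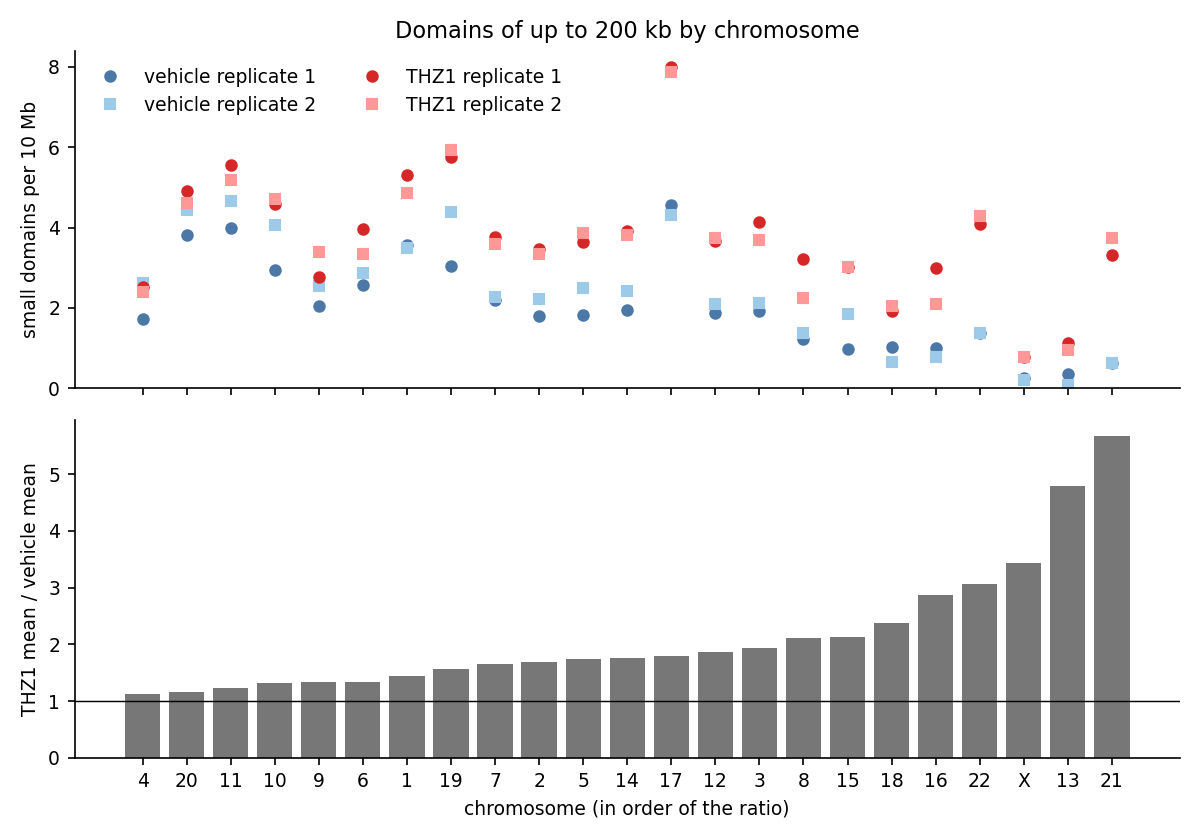
The upper panel plots small domains per 10 Mb of chromosome in each of the 4 libraries, and the lower panel the ratio of the THZ1 mean to the vehicle mean, with chromosomes in order of that ratio. All chromosomes lie above 1, from 1.13 on chromosome 4 to 5.67 on chromosome 21.

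Across the 23 chromosomes, which are not replicates of the treatment, the density of small domains went with the density of genes, with Spearman's rho of 0.595 for the vehicle means and 0.670 for the THZ1 means, given as descriptions. The ratio for small domains and the ratio for larger domains had a rho of -0.0049 over these chromosomes, and Pearson's r of the log ratios was 0.280, although chromosome 21 had the highest ratio for both.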

How the data were processed

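Hi-C was measured in 4 libraries of MDA-MB-231 cells, 2 with vehicle and 2 with THZ1, grouped by the sample titles. The authors processed the reads with Juicer 1.6 on hg19, per the submitters' processing notes, and the deposited lists name juicer_tools 1.19.02. The deposited domain lists give a corner score for each domain that Arrowhead called on a 10 kb grid, and the deposited loop lists give the observed count of contacts and the expected contacts, a signal from the donut neighborhood, for each loop that HiCCUPS called. The settings of both callers are not given in the sources used here. Of 14836 boundaries, 0 lay beyond a chromosome end of GRCh37 and 1 in an unsequenced stretch. The authors' deposited tables of unique loops hold their own comparison and were not used.

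Gene starts were taken from GENCODE 44 in its lift to GRCh37, protein-coding genes alone. Domains of a pair of lists were matched if each boundary lay within 20 kb of its counterpart, and loops were called corner loops when both anchors lay within 20 kb of the ends. Library values were set against each other by exact two-sided permutation tests (6 splits) and size classes by exact two-sided sign-flip tests, with Benjamini-Hochberg adjustment (Python 3.11.15, pandas 2.3.3, scipy 1.17.1). Matching and tests were tested on simulated data. The named domains are up to 3 with the highest mean corner score among those called in all 4 libraries, in both THZ1 alone and in both vehicle alone, and the domain with the most gene starts in each condition, none of them from chromosome 8. The named genes are those of 9 lists (condensin; cohesin and CTCF; CDK7 and transcriptional kinases; AP-1; YAP and TEAD; epithelial-mesenchymal transition; luminal; mitotic; basal and invasive) that start in a small domain of both libraries of a condition, with a few named after their values were seen (CDK7 and WAPL, and the condensin genes). The members and lists were chosen with earlier results of these data known. Intervals are 95% Wilson intervals. Alternatives changed the size limit, the score minimum, the matching, gene, motif and loop distances, the gene set, the anchor width, the size mix, the slack of containment, the replicate block and the libraries used. The motif matches of the WWC2 domain are not reported here.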

Additional observations from a re-analysis of the deposited data

How the results depend on the processing

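Of 81 alternative values over 16 results, without the replicate block and the libraries left out, 58 kept their direction or stayed within 1.5-fold of the count. None of the 14 compared results could pass the threshold in this design, so these values bear on direction alone. With a limit of 150 kb the difference in median size was 0 kb, the share without a gene start differed by -0.305 percentage points, the share inside 1 gene by 0.0650, the share with gene starts at both ends by -0.161 and the median corner score by -0.0161. With a limit of 250 kb the share of all domains differed by 1.22 percentage points, gene starts at both ends by -0.0095 and corner loops by -0.0345. With at least the median corner score of all domains (1.08), genes per domain differed by -0.0597, the share without a gene start by -1.07 and gene starts at both ends by -1.01. The latter was also reversed with all annotated genes (-0.569) and with gene starts within 10 kb (-0.986). Corner loops differed by -0.821 and -4.98 with anchors within 10 and 50 kb, the matched score by -0.0158 with boundaries within 10 kb, and the share inside 1 gene by 0.0018 with a common size mix. The 276 small domains of both THZ1 and neither vehicle library numbered 73 up to 150 kb, 444 up to 250 kb and 138 at the higher scores, and the 58 of both vehicle and neither THZ1 library 22, 30 at the higher scores and 25 with boundaries matched within 50 kb. The causes were not tested, beyond the fewer or more domains that these limits admit.

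Leaving out each library in turn gave a log2 ratio of numbers from 0.59 to 0.80, a difference in share from -6.98 to -6.50, in median size of 10 kb throughout, in gene starts at an end from -2.41 to -1.13, in observed over expected contacts from -0.616 to -0.348, in nesting from 1.49 to 2.29 and in inward motifs from 0.386 to 1.59. Differences that crossed 0 ran from -0.0104 to 0.0709 for genes per domain, -0.547 to 0.530 inside 1 gene, -0.676 to 0.926 without a gene start, -0.213 to 1.42 for both ends, -0.000806 to 0.0225 for the corner score, -0.747 to 2.26 for corner loops and -0.0054 to 0.0141 for the matched score. The counts of small domains called in 1 condition alone ran from 355 to 586 for THZ1, with 548 without THZ1 replicate 1 and 586 without THZ1 replicate 2, and from 89 to 217 for vehicle, since fewer libraries had to call or lack the domain.

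With a replicate block the mean log2 ratio of numbers was 0.70, the other differences stayed as they were by construction, and the smallest p of 2 pairs was 0.5, so the block says nothing about any call. Libraries with the same number deviated to the same side in 7 of 13 results and to opposite sides in 6, and the labels do not pair them. The depth of each library is unknown from these lists, which limits how far numbers of calls can be compared.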
